A study of Mesocricetus auratus with 9 samples.

Results

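Late torpor was set against the summer euthermic state in the liver of the Syrian hamster (Mesocricetus auratus), with 6 of the series' 9 libraries, chosen by the hibernation stage in the labels. The torpor late group was 3 hibernating animals, kept in the dark until they were killed, with a mouth temperature of 9.0 ± 0.9 °C. The summer euthermic group was 3 animals outside hibernation, with a mouth temperature of 35.7 ± 0.5 °C. The labels do not say what the spread of the temperatures is, and they name no strain, genotype, age, sex or drug for either group. Season, lighting, hibernation and body temperature thus differ together between the groups and cannot be told apart here. The remaining 3 animals were handled out of torpor after more than 3 days and sampled early in arousal. Their libraries entered the filter, the scaling, the estimate of spread and a search for a division of the libraries. They also served to class genes by level, and their values are shown for single genes. Each animal gave 1 library of polyadenylated liver RNA, counted per gene.

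Torpor is the phase of hibernation in which metabolic rate is lowered and body temperature falls close to that of the surroundings, and it is broken at intervals by arousals back to normal temperature. Syrian hamsters are facultative hibernators, which enter torpor when held in cold and short days or darkness. The liver supplies glucose, ketone bodies, lipoproteins and most plasma proteins, and the chemical steps of transcription, RNA processing and decay all slow in the cold. A count per gene gives the share of a transcript in the RNA of a library. It cannot show whether the total amount of RNA per cell changed. In whole liver, fewer cells of a type and less RNA per cell cannot be told apart either. Genes are given by Ensembl identifier, since 0 of the 17090 listed identifiers were paired with a symbol in the tables used here. The labelled tissue could therefore not be checked against liver markers.

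The 6 libraries held between 29675688 counts (torpor late replicate 1) and 43253103 counts (summer euthermic replicate 1), and levels are given as CPM, counts per 1000000 of the TMM-scaled library, of which 1 stood for 29.6 to 42.6 counts. Of the 17090 listed genes, 16830 had a count in these libraries and 12780 had enough counts to be tested. The 4310 genes that were not tested together made up no more than 0.0344% of a library's counts. A division of the libraries that cuts across the stages touches several results. It came from a search, over all 9 libraries, for genes whose low and high libraries were parted by 10-fold or more. Of 9 such genes, 7 set summer euthermic replicate 2 and torpor late replicate 1, together with 2 arousal libraries, apart from the other 5 libraries. Each result it touches is given below with it, and its origin was not tested.

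The genes detected in torpid liver were largely those detected in summer liver. A level of at least 1 CPM was reached in all 6 libraries by 10443 genes (61.1% of those listed), and 5443 genes stayed under it in all 6. The number of genes at 1 CPM or more was 11047, 10947 and 11029 in the summer euthermic libraries and 11036, 11125 and 11006 in the torpor late libraries. The 2 sets overlapped, and the mean difference of 48 genes had an exact permutation p of 0.5 (two-sided, n = 3 each). After all libraries had been thinned to the smallest total the difference was 17.7 genes (exact permutation p = 0.8, n = 3 each). At a limit of 10 CPM torpor late had 6783 ± 61.5 genes against 6847 ± 45 (SD, n = 3 each), and at 100 CPM it had 1216 ± 27.8 against 1192 ± 11.5 (SD, n = 3 each). The 50 most abundant genes took 39.5 ± 1.24% of the counts in torpor late and 40.1 ± 2.01% in summer euthermic libraries (SD, n = 3 each). Of 12 such library measures, all overlapped between the stages, with exact permutation p-values from 0.2 to 1. With 3 animals against 3 the smallest possible p is 0.1, so that no such test can pass 0.05.

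No gene was switched fully on or off. On was set at 1 CPM or more in all 3 libraries of a stage and off at less than 0.1 CPM in all 3 libraries of the other. By these limits 0 of the 17090 listed genes were on in torpor late and off in summer euthermic animals, and 0 were the reverse. Requiring 10 counts in each of 3 libraries against none in the other 3 also gave 0 genes in both directions. With wider limits of 0.5 and 0.25 CPM, 1 gene came on and 2 went off, and none of these 3 passed the test described below. The gene that came on had 0.190, 0.117 and 0.0782 CPM in the summer euthermic libraries and 0.879, 1.81 and 0.903 CPM in the torpor late libraries. Its log2 fold change was 3.19 (SE 0.78, edgeR adjusted p = 0.0737). The 2 genes that went off had 0.517 to 0.999 CPM in the summer euthermic and 0.133 to 0.241 CPM in the torpor late libraries. They had log2 fold changes of -1.68 and -1.80 (edgeR adjusted p = 0.0514 and 0.0812). Among genes with reads in a single stage, 40 had a count in every torpor late library and none in summer euthermic ones, and 24 had the reverse, but none of them exceeded 22 counts summed over 3 libraries. A count of 0 in the 3 summer euthermic libraries allows a level of up to 0.0244 CPM, from counting error only.

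**Figure D1:**
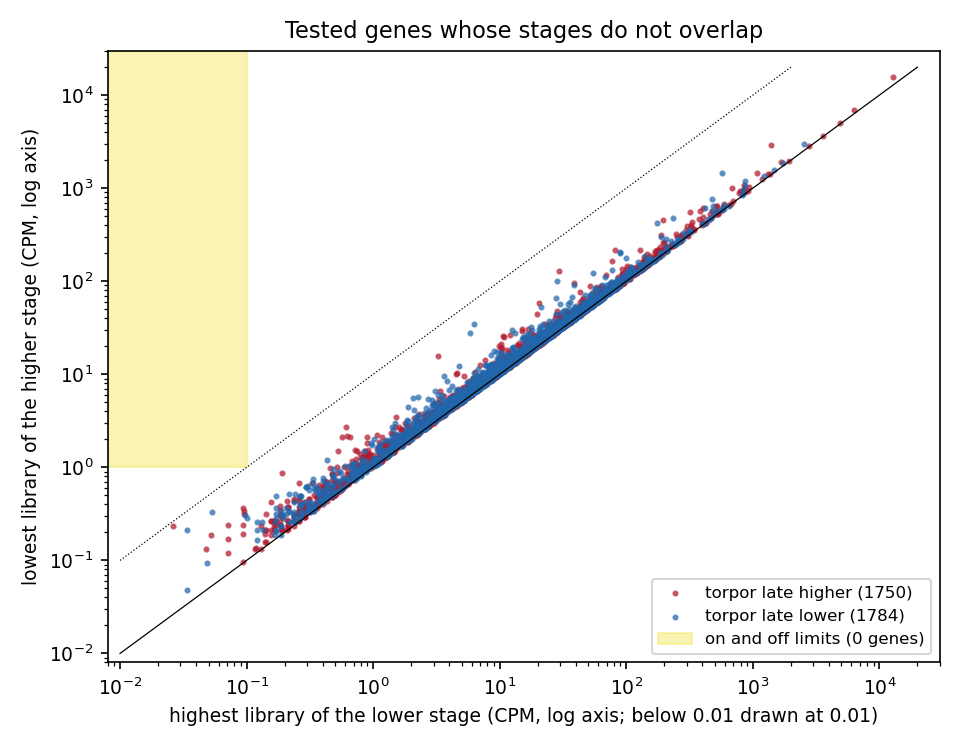
Each point is 1 of the 3534 tested genes whose torpor late and summer euthermic libraries do not overlap, with the highest CPM of the lower stage on the horizontal log axis and the lowest CPM of the higher stage on the vertical log axis. Points lie close above the solid line of equal values, none lies past the dotted line of a 10-fold gap at 1 CPM or more, and the shaded area that marks genes on in one stage and off in the other holds 0 genes.

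Single animals of one stage did differ by such steps. In torpor late, 27 genes were at 1 CPM or more in one animal and under 0.1 CPM in another, and in summer euthermic animals there were 28 such genes. At the higher limits of 10 CPM and 1 CPM these counts were 4 and 10. A pair of animals meets such limits more easily than 3 against 3, so these counts are not set against those between the stages. The clearest case was a gene with 140 CPM in summer euthermic replicate 2, 0 counts in 4 of the other 5 libraries of these stages and 0.0796 CPM in torpor late replicate 3. It was left out of the test because a single library reached 10 counts. One of the 7 genes that make the division was on and off by it, with at least 11.2 CPM in each of the 4 libraries of the smaller side and at most 0.0531 CPM in each of the 5 of the larger side. Between the stages, for 83 tested genes every library of one stage was at least 2-fold above every library of the other (0.649% of the genes tested), of which 45 were higher and 38 lower in torpor late. A gap of 4-fold was seen for 5 higher and 4 lower genes, and a gap of 10-fold at 1 CPM or more for none.

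A weaker form of gain and loss was the crossing of 1 CPM. In 49 genes all torpor late libraries were at or above 1 CPM and all summer euthermic libraries below it, and in 23 genes the reverse held. Most of these were small steps about the limit: 37 of the 49 and 18 of the 23 had means between 0.5 and 2 CPM in both stages. The 49 gains had a median log2 fold change of 1.05 and the 23 losses one of -1.06. After thinning to equal depth the counts were 48 and 28. The excess of gains over losses moved with single animals. Without summer euthermic replicate 2 there were 75 gains and 63 losses, and without torpor late replicate 2 there were 69 and 58. Of the 49 gains 5, and of the 23 losses 1, passed the test described next, beside 1.37% of all genes tested. These genes were picked for not overlapping, so nothing is read from that count.

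The size of change was then estimated for each of the 12780 tested genes with edgeR's quasi-likelihood model. Log2 fold changes are torpor late minus summer euthermic. Their median was 0.01, and 6559 genes (51.3%) lay above 0. The scaling of the libraries centres these values near 0, so they do not bear on whether RNA as a whole rose or fell. The middle 50% of genes lay between -0.22 and 0.23, and 7149 genes (55.9%) had a fitted change smaller than 1.2-fold. A fitted change of 2-fold or more was found for 398 genes upwards and 326 downwards, together 5.67%. One of 4-fold or more was found for 55 upwards and 45 downwards. For 9287 genes (72.7%) the 95% interval of the log2 fold change, taken gene by gene, lay wholly between -1 and 1, so that a 2-fold change lay outside it. For 5282 genes (41.3%) it lay within 1.5-fold. The interval lay wholly beyond 2-fold for 29 genes upwards and 28 downwards. For the remaining genes the interval reached 2-fold in at least one direction, and these data do not bound them more closely.

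Genes were called different at a Benjamini-Hochberg adjusted p-value under 0.05 over all genes tested. By that rule 86 genes rose in torpor late (0.673% of those tested) and 89 fell (0.696%), together 1.37%. DESeq2, run on the same genes, called 534 higher and 533 lower genes, which included these 175. Before adjustment, p was under 0.05 for 1408 higher (11%) and 1344 lower genes (10.5%), together 2752 (21.5%). The stages did not overlap, with all 3 torpor late values above or all 3 below the summer euthermic ones, in 1750 higher (13.7%) and 1784 lower genes (14%), together 27.7%. By number, most called genes had changed less than 2-fold. A fitted change of 1.2 to 1.5-fold was found for 18 of them, 1.5 to 2-fold for 87, 2 to 4-fold for 53 and 4-fold or more for 17. The share of genes called rose with the fitted change, which itself enters the call. Over these classes it was 0.499, 6.69, 8.49 and 17%, beside 1.37% of all genes tested. Of the 100 genes with a fitted change of 4-fold or more, 83 were not called. Over all 100 of these genes, called or not, the median level was 1.31 CPM. The median margin of their 95% interval was 1.80 on the log2 scale, against 0.34 for genes under 1.2-fold. The number of calls fell when any of the 6 libraries was left out. Without summer euthermic replicates 1, 2 and 3 it was 17, 26 and 5, and without torpor late replicates 1, 2 and 3 it was 1, 0 and 31. Without torpor late replicate 2, where edgeR called none, 2275 genes had an unadjusted p-value under 0.05. Without arousal early replicates 1 and 2, which enter through the filter, the scaling and the shared spread, the number of calls was 313 and 74. With the division of the libraries as a covariate it was 410, which included all 175. Within the larger side alone (2 animals against 2) it was 48, which included only 14 of the 175.

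**Figure D2:**
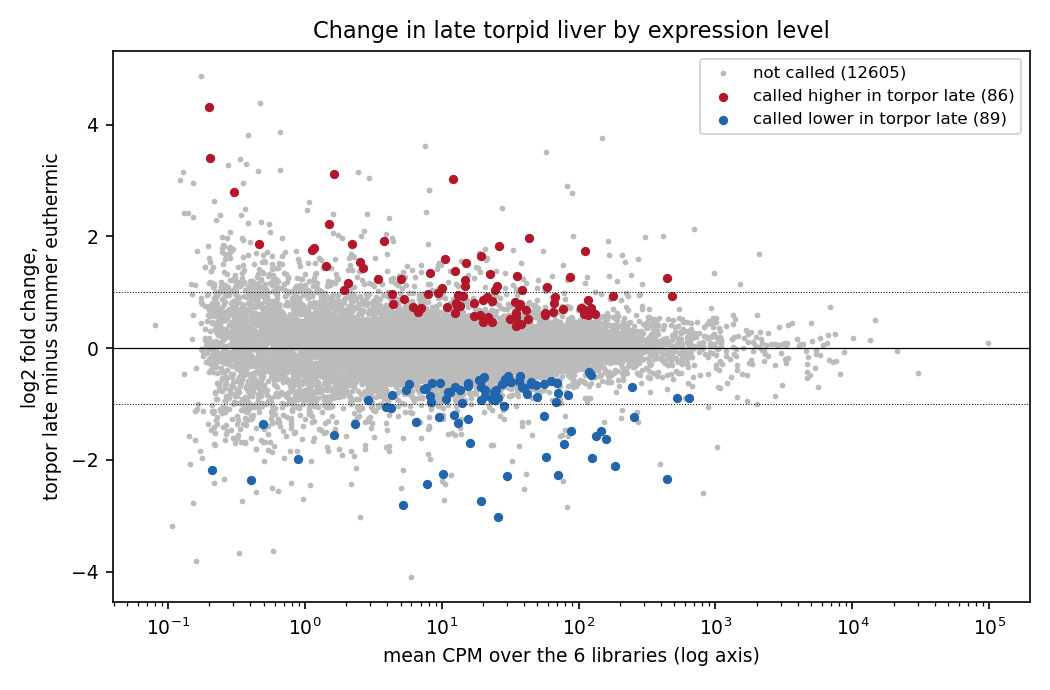
Each point is 1 of the 12780 tested genes, with its mean CPM over the 6 libraries on the horizontal log axis and its log2 fold change in torpor late relative to summer euthermic liver on the vertical axis. The 86 genes called higher and 89 called lower are coloured, dotted lines mark 2-fold changes, and the cloud narrows from the lowest levels to about 100 CPM.

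Few called genes were near absent in the stage where they were lower. Among the 86 that rose, the median level in summer euthermic liver was 12.7 CPM. It was under 1 CPM in 10 of them, 1 to 10 CPM in 30, 10 to 100 CPM in 42 and 100 CPM or more in 4. Among the 89 that fell, the level left in torpor late had a median of 16.3 CPM and was under 1 CPM in 5, 1 to 10 CPM in 29, 10 to 100 CPM in 48 and 100 CPM or more in 7. A mean under 0.1 CPM in the lower stage was found for 3 genes that rose and 1 that fell, and in these the higher stage reached at most 0.676 CPM in any library. Every library of their lower stage was under 0.1 CPM, the limit set for off, but the higher stage did not reach the limit for on. All 175 called genes had no overlap between the stages, a property that the call itself favours. In 15 that rose and 15 that fell every library of one stage was at least 2-fold above every library of the other.

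The share of genes with a large fitted change differed with expression level, and so did the precision. Genes were put in 5 classes by their mean CPM over the 6 libraries. Under 1 CPM (1664 genes), 20.5% had a fitted change of 2-fold or more, but the median margin of the 95% interval was 0.95 on the log2 scale and only 4 genes rose and 4 fell. From 1 to 10 CPM (4262 genes), 5.49% had a 2-fold change, 23 rose and 18 fell. The class from 10 to 100 CPM (5643 genes) was the most precise, with a median margin of 0.31. There 1.97% had a 2-fold change, 48 genes rose and 55 fell, and the interval lay within 2-fold for 90.4%. From 100 to 1000 CPM (1086 genes), 3.13% had a 2-fold change, 11 genes rose and 12 fell. The share of genes called was 0.481, 0.962, 1.83 and 2.12% over these 4 classes, beside 1.37% of all genes tested. The percentage with p under 0.05 before adjustment was flatter, at 18.6, 20.9, 22.9 and 22.1%, beside 21.5% of all genes tested. The larger fold changes at low level thus went with wider intervals.

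**Figure D3:**
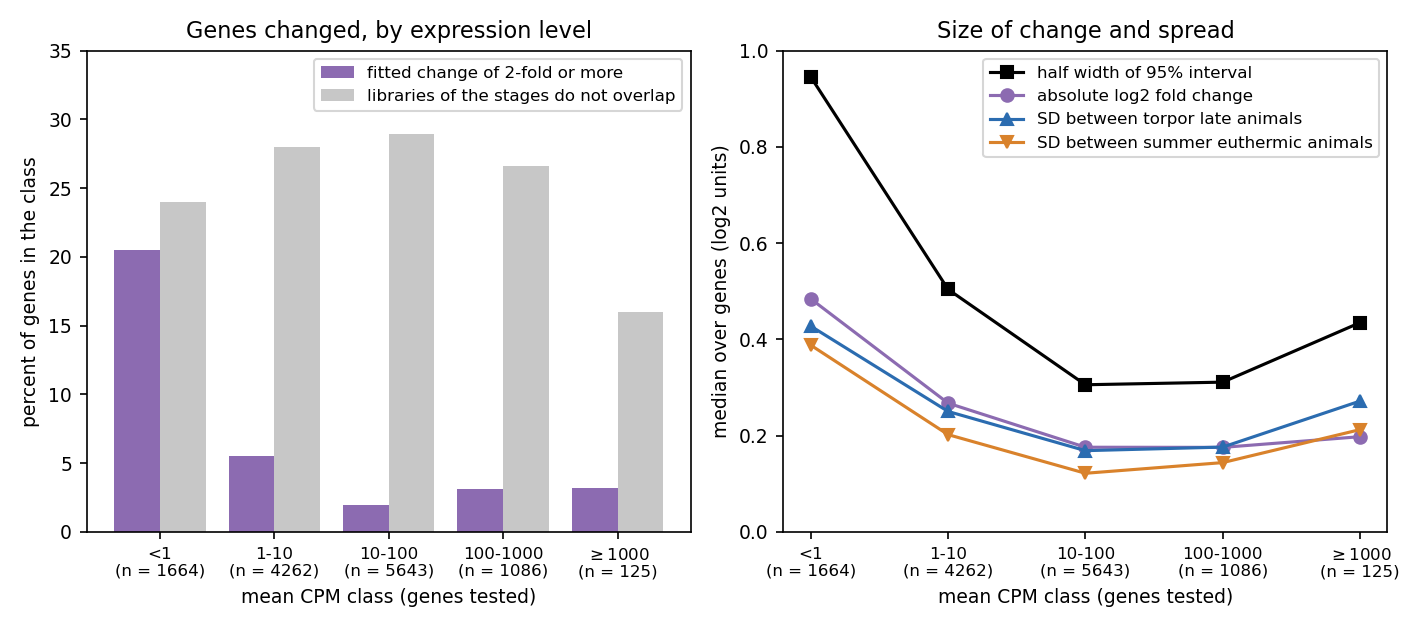
Bars (left) give the percentage of tested genes in each class of mean CPM with a fitted change of 2-fold or more and with no overlap between the stages. Lines (right) give medians over the genes of each class, in log2 units, of the absolute log2 fold change, the margin of its 95% interval and the SD between the 3 animals of each stage; the margin falls from 0.95 under 1 CPM to 0.31 at 10 to 100 CPM and is 0.43 at 1000 CPM and over.

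The class at 1000 CPM and over held 125 genes and 51.4% of the counts. Of these 0 were called by edgeR, which is near the 1.37% called among all genes in a class of this size, 19 (15.2%) had an unadjusted p-value under 0.05, and the stages did not overlap for 20 (16%, beside 27.7% of all genes tested). The unadjusted share moved to 8.13% without summer euthermic replicate 1 and to 23.1% without torpor late replicate 1. Animals also varied more within this class: the median SD of log2 CPM was 0.27 between torpor late and 0.21 between summer euthermic animals, against 0.17 and 0.12 at 10 to 100 CPM. A fitted change of 2-fold or more was found for 4 of the 125. One had 1393, 400 and 1155 CPM in the summer euthermic libraries and 2916, 3582 and 2929 CPM in the torpor late libraries, or 1.68 on the log2 scale (SE 0.39, edgeR adjusted p = 0.0644). Another had 1468, 1600 and 1676 CPM in summer euthermic and 264, 563 and 570 CPM in torpor late libraries, or -1.76 on the log2 scale (SE 0.44, edgeR adjusted p = 0.0754). Neither overlapped between the stages and neither passed the threshold. The third, with a log2 fold change of 1.15, also did not overlap (edgeR adjusted p = 0.0995). The fourth had 3564, 280 and 4221 CPM in summer euthermic and 275, 2212 and 1544 CPM in torpor late libraries. Its 2 low libraries were those on the smaller side of the division, and the stages overlapped (edgeR adjusted p = 0.637).

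The direction of genes with p under 0.05 before adjustment was also counted by level, beside 1408 higher and 1344 lower genes over all levels; no difference between classes was tested. From 100 to 1000 CPM, 149 such genes were higher and 91 lower, and the median log2 fold change was 0.04. When genes were classed by their level in the 3 arousal early libraries, which enter neither mean of the contrast, the numbers in that class were 167 and 84. Those animals were hibernating too, so their levels can share a change with torpor late. This classing may therefore favour one direction, which was not tested. Under 1 CPM there were 190 higher and 120 lower genes, but 180 and 150 when classed by the arousal early level, and the median log2 fold change went from 0.13 to 0.06. From 10 to 100 CPM 613 were higher and 681 lower, and 618 and 645 by the arousal early level. From 1 to 10 CPM the counts were 445 and 444, and 426 and 462 by the arousal early level. At 1000 CPM and over they were 11 and 8, and 17 and 3 by the arousal early level. The share of all counts held by the class from 100 to 1000 CPM was 28.1 ± 0.426% in torpor late and 27.3 ± 1.06% in summer euthermic libraries (SD, n = 3 each). That difference was within the spread between animals (exact permutation p = 0.3, and 0.8 after adjustment over 10 such shares).

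The amount of each library that moved between genes was counted next. Summed over genes, the mean CPM was higher in torpor late by 87757 CPM and lower by 83818 CPM, about 8.82% and 8.42% of a library. Both sums take in variation between animals, which was not subtracted, so they do not measure the part that goes with stage. The 175 genes called by edgeR held 2.53% of the upward sum and 4.52% of the downward sum. The 86 genes that rose went from 0.252% of the counts in summer euthermic to 0.471% in torpor late libraries, and the 89 that fell went from 0.699% to 0.318%. Of each sum, 50% lay in 58 genes upwards and 35 downwards, of which 37 and 31 were at 1000 CPM or more. Of the 58 genes 2, and of the 35 genes 1, were called, beside 1.37% of all genes tested. Those genes were picked by the difference itself. The stages did not overlap in 27 of the 58 (46.6%) and in 10 of the 35 (28.6%), beside 27.7% of all genes tested.

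Single libraries were then compared in pairs, within a stage and between stages. Such differences are not averaged over animals, so the values below are not set against the sums above, which compare means of 3 libraries. For a pair of libraries, the CPM moved is the sum of the absolute differences over genes, divided by 2. It was 100457 to 155227 CPM between torpor late animals (3 pairs, mean 127422), 81653 to 123997 CPM between summer euthermic animals (3 pairs, mean 104110) and 101757 to 161941 CPM between animals of different stages (9 pairs, mean 129031). On this scale, which abundant genes dominate, distances between stages and within them overlapped when all pairs were taken. Among pairs on the same side of the division they did not, with 81653 and 100457 CPM for the 2 pairs within a stage and 101757 to 133325 CPM for the 5 pairs between stages. The sides were found in these same libraries and the pairs are few, so no separation of the stages is read from this. Across the sides they overlapped, with 106679 to 155227 CPM within a stage and 129495 to 161941 CPM between stages. On the log2 scale, where each tested gene counts alike, the stages were somewhat farther apart. The root mean square difference of log2 CPM was 0.52 to 0.59 between torpor late animals, 0.42 to 0.60 between summer euthermic animals and 0.59 to 0.73 between stages.

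These distances also differed by the division of the libraries. Pairs share libraries and are not independent, and the sides were found in these same libraries. The values by side are thus a description only. Between libraries on the same side, the root mean square difference was 0.42 and 0.52 for the 2 pairs within a stage and 0.59 to 0.64 for the 5 pairs between stages, with no overlap. Across the sides it was 0.57 to 0.60 for 4 pairs within a stage and 0.67 to 0.73 for 4 pairs between stages, again with no overlap. Pairs of one stage from different sides were thus about as far apart as pairs of different stages from the same side. On the first principal component of the 6 libraries, with 37.2% of the variance, the torpor late libraries scored 40.2, 17.1 and 16.2 and the summer euthermic libraries -35.2, -5.16 and -33.1. The stages did not overlap on it. On the second component, with 29.2%, summer euthermic replicate 2 and torpor late replicate 1 scored -43.8 and -16.7 and the other 4 libraries between 4.12 and 30.8.

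**Figure D4:**
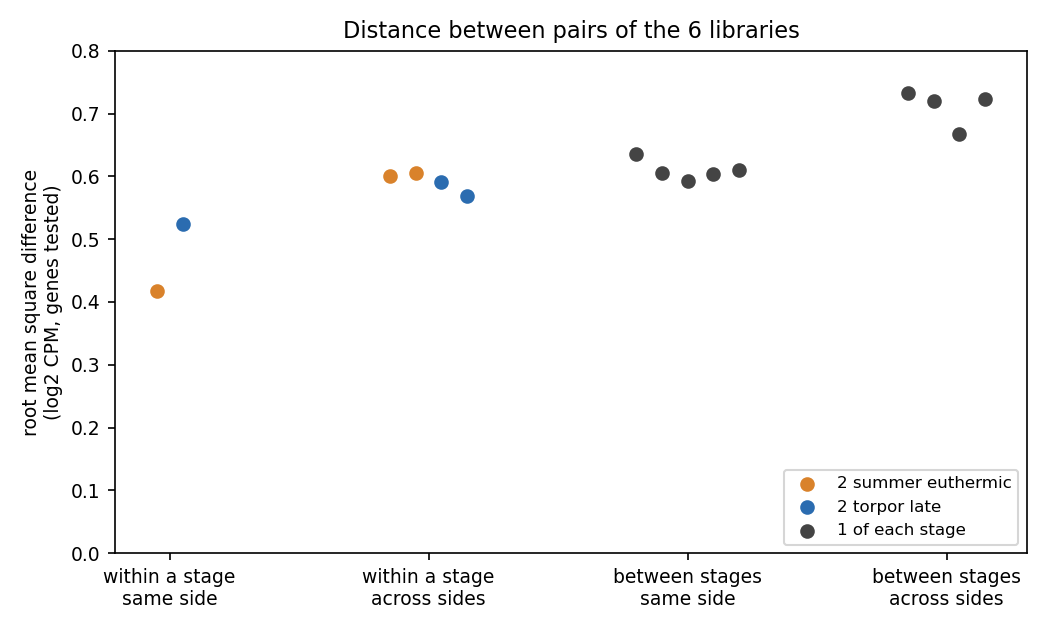
Each point is a pair of the 6 libraries, with the root mean square difference of log2 CPM over 12780 genes on the vertical axis, grouped by whether the pair shares its stage and its side of the division. Pairs within a stage lie below pairs between stages when both are on the same side (0.42 and 0.52 against 0.59 to 0.64) and when they are not (0.57 to 0.60 against 0.67 to 0.73).

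At the median gene, torpid animals differed from each other slightly more than summer animals did. The median SD of log2 CPM over genes was 0.22 between the 3 torpor late and 0.17 between the 3 summer euthermic animals, and 7717 genes (60.4%) had the larger SD in torpor late. This held in each of the 5 level classes, where 55.3 to 69.6% of genes had the larger SD in torpor late. Between the 2 animals of each stage on the larger side of the division, the median absolute difference was 0.24 in torpor late and 0.17 in summer euthermic liver, and 59.0% of genes differed more in torpor late. Wide ranges went the other way. Among genes that reached 10 CPM in a stage, 74 of 7217 (1.03%) varied 4-fold or more between torpor late animals. Between summer euthermic animals 95 of 7201 (1.32%) did. Torpor late replicate 1 was also the shallowest library, and genes are not independent replicates, so these shares describe the 6 animals only.

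In each direction 2 genes are named, 1 with the largest fitted fold change and 1 with the largest difference in mean CPM among the called genes. ENSMAUG00000010980 showed the largest rise in CPM. It had 318, 198 and 269 CPM in the summer euthermic libraries and 741, 560 and 577 CPM in the torpor late libraries. All torpor late libraries lay above all summer euthermic ones. Their means were 626 ± 100.1 and 262 ± 60.3 CPM (SD over 3 libraries each). The fitted rise was 1.26 on the log2 scale (SE 0.19, edgeR adjusted p = 0.028). With 8445 to 23231 counts per library, counting error was small. The arousal early libraries, at 839, 727 and 858 CPM, lay above the summer euthermic ones too. The direction held in all 17 alternatives, but 7 of them, each of the 6 that left out a library of these stages and the fit within the larger side, gave adjusted p-values of 0.0533 to 0.093.

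ENSMAUG00000021890 showed the largest fall in CPM. It had 480, 767 and 953 CPM in summer euthermic and 133, 235 and 65.8 CPM in torpor late libraries, so that the stages did not overlap. The means were 733 ± 238 CPM in summer euthermic and 145 ± 85.4 CPM in torpor late liver (SD over 3 libraries each). The fitted change was -2.34 on the log2 scale (SE 0.44, edgeR adjusted p = 0.0423). The arousal early libraries had 177, 107 and 147 CPM. It stayed lower in torpor late in all 17 alternatives, and its adjusted p-value passed 0.05 in 10 of them, reaching 0.158 within the larger side of the division. Leaving out any 1 of the 6 libraries gave adjusted p-values of 0.0677 to 0.129.

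ENSMAUG00000002564 had the largest fold decrease. Its values were 45.9, 57.3 and 35.0 CPM in summer euthermic and 5.34, 6.22 and 5.52 CPM in torpor late libraries, a fall of 8.09-fold between the means that left 158 to 258 counts in each torpid library. The gap between the stages was far wider than the spread within torpor late. The log2 fold change was -3.01 (SE 0.32, edgeR adjusted p = 0.0126), which was the smallest adjusted p-value of all genes. Arousal early libraries had 15.2, 6.50 and 7.44 CPM. It missed the threshold in 2 of 17 alternatives, with edgeR adjusted p = 0.0508 without torpor late replicate 1 and 0.058 without torpor late replicate 2.

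ENSMAUG00000013167 had the largest fold increase, at a very low level. It had 0, 1 and 1 counts in the summer euthermic libraries and 7, 23 and 13 counts in the torpor late libraries, or 0 to 0.0261 and 0.237 to 0.554 CPM. From the pooled counts of 2 and 43 the ratio was 24.3, with an exact 95% interval for counting error of 6.33 to 207. The fitted log2 fold change was 4.32 (SE 0.78, edgeR adjusted p = 0.0384), and with so few counts in summer liver its size depends on the prior count of the fit. The arousal early libraries had 17, 3 and 8 counts. This gene did not pass the filter when the 6 libraries were taken alone, nor the filter that asked for a minimum count in every library. It was thus not tested in those fits, and its call depends on a filter that also used the arousal early libraries. In the 15 alternatives that tested it, it was always higher in torpor late. It missed the threshold in 8 of them, with adjusted p-values of up to 0.121. Each library of the 6 was among those whose omission lost the call (0.0729 to 0.121).

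**Figure D5:**
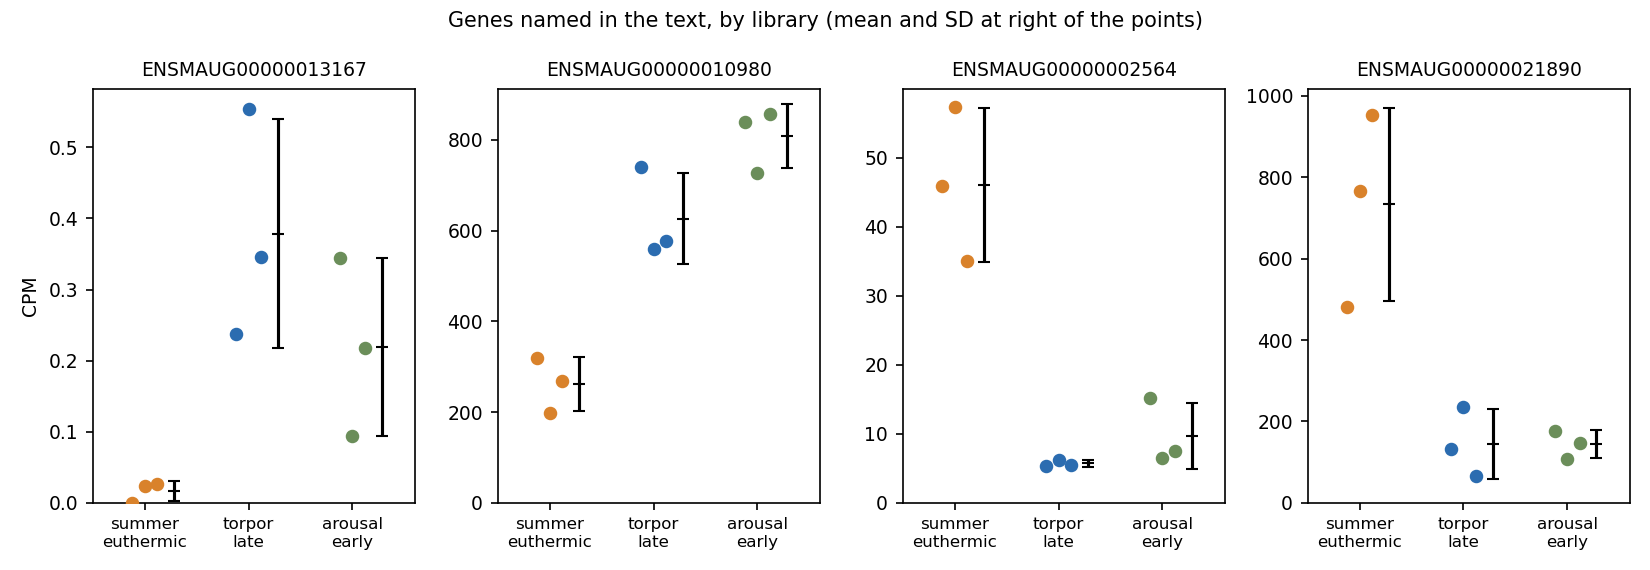
Points are the CPM values of single libraries for the 4 named genes, 3 for each stage, on linear axes that start at 0 and differ between genes; the bar beside each set is the mean with its SD. Torpor late and summer euthermic libraries do not overlap for any of the 4, and the levels range from under 1 CPM for ENSMAUG00000013167 to 953 CPM for ENSMAUG00000021890.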

How the data were processed

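Liver RNA libraries from 9 hamsters were used, 3 per stage. Per the labels' protocols, poly(A)-selected, strand-specific libraries were made from 437 ng of RNA from each liver and read from a single end to 75 bp. The authors deposited 1 table of raw read counts per Ensembl gene. The submitters' processing notes name STAR 2.7.0f; the counting program, strand setting, build and annotation are not given in the sources used here. Reads of overlapping genes or near-identical copies may therefore be shared. Columns were matched to animals by the number in the titles, and replicate numbers only name libraries.

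Counts were filtered with filterByExpr (12780 of 17090 genes kept), scaled by TMM and fitted in edgeR 4.0.16 (R 4.3.3) with 1 quasi-likelihood model over the 9 libraries; torpor late was contrasted with summer euthermic, and p-values were adjusted by Benjamini-Hochberg over all genes tested. Standard errors are the absolute log2 fold change over the square root of F, and intervals use the model's t quantile. CPM uses TMM-scaled library sizes, and distances use log2 CPM with a prior count of 2. Library measures were compared by two-sided exact permutation. Alternatives were RLE scaling, DESeq2 1.42.0, limma-voom (limma 3.58.1), other filters, the 6 libraries alone, leaving out each library, and the division of the libraries; leaving out libraries for level classes, moved CPM and library measures was added after seeing the data. The procedure was tested on simulated data.

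Named genes were, in each direction, the called gene with the largest absolute log2 fold change and the called gene with the largest difference in mean CPM. The comparison, the lists and the rules were chosen with earlier results of these data known. Of the gene lists and cell type markers planned (19 gene lists and 8 marker sets), none could be run without symbols.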

Additional observations from a re-analysis of the deposited data

How the results depend on the processing

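The number of called genes depended on the tool and on the animals more than on scaling. With RLE scaling, limma-voom, no filter, a filter of 10 counts and the 6 libraries alone it stayed within 1.5 times the 86 higher and 89 lower genes. The genes behind that number changed more. In the same order, 174, 150, 150, 166 and 78 of the 175 were called again. The fit to the 6 libraries alone called 134 genes and tested 173 of the 175. DESeq2 called 534 higher and 533 lower genes, with 9 genes given no adjusted p-value, and included all 175. With the covariate for the division of the libraries there were 198 higher and 212 lower genes, and within its larger side 27 and 21. Of the 175, 14 were called again within the larger side. Leaving out 1 of the 9 libraries gave 0 to 127 higher and 0 to 186 lower genes. Genes at an unadjusted p-value under 0.05 and genes whose interval lay within 2-fold stayed within 1.5 times in all 17 alternatives, and all called genes that were tested kept their direction. The cause of the shifts was not tested, nor was the part played by fewer animals.

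Genes switched on or off numbered 1 and 2 with limits of 0.5 and 0.25 CPM, and 1 and 1 within the larger side. Leaving out 1 replicate gave 0 to 1 genes on and 0 genes off. The difference in the share of the 50 most abundant genes, -0.62 percentage points, turned to 0.0585 for the 10 most abundant, and leaving out 1 replicate gave -1.72 to 0.248, and no direction is read from it. In the class at 1000 CPM and over, the percentage at an unadjusted p-value under 0.05 ranged from 8.13 to 23.1 when 1 replicate was left out. Moved CPM, genes detected and the other level classes kept their direction or stayed within 1.5 times. For the 4 named genes 66 values were computed: 39 stayed called, 27 did not, and 0 changed direction. Depth limits the genes under 1 CPM, where 1 CPM is 29.6 to 42.6 counts. No paired analysis was possible because each library came from a different animal.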
